A study of Mus musculus with 7 samples.

Results

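The antiviral effector genes Ifit1, Ifit2, Ifit3, Mx1, Mx2, Rsad2, Bst2, Isg20, Xaf1 and Rtp4 were examined in hematopoietic progenitors of the mouse fetal liver that carried or lacked Uhrf1. They were 10 genes of the 22680 in the deposited table, found by symbol, and all 10 were present. The list was put together by function within the interferon response and was chosen on the genotype difference of interferon-stimulated genes in these same libraries. The difference between genotypes is therefore given as a description. All libraries came from C57BL/6 fetal livers at 13.5 days post coitum. There were 3 libraries of Uhrf1-/- LSK cells, 1 library of wild-type LK cells and 3 libraries of wild-type LSK cells. The LSK gate takes lineage-negative cells positive for both Sca-1 and c-Kit, among them the stem cells and the multipotent progenitors. The LK gate takes lineage-negative cells that have c-Kit but not Sca-1, which are further along in differentiation. Uhrf1 encodes a protein that recruits the maintenance DNA methyltransferase Dnmt1 to hemimethylated DNA. The sources used here do not say how the deletion was made, which exons and cells it covered or whether fetuses were pooled.

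Type I interferon binds its receptor and activates a transcription factor complex that binds interferon-stimulated response elements (ISREs) at target promoters. The proteins made from these targets act on viruses at several steps: IFIT proteins bind foreign RNA, Mx proteins are dynamin-like GTPases that act on viral nucleocapsids, Rsad2 and Isg20 are enzymes that act on nucleotides and RNA, and Bst2 tethers budding virions to the cell surface. In blood-forming stem cells, interferon is also known to move quiescent cells into the cycle.

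The estimated reads per library lay between 16808533 and 25803024. FPKM counts fragments per length of the gene and per sequenced fragment of the library. Uhrf1 itself had 8.78 to 18.6 FPKM in Uhrf1-/- LSK cells, 115.9 FPKM in LK cells and 63.0 to 112.8 FPKM in wild-type LSK cells, so its level went with the labels. The LK library held 0.321 FPKM of Ly6a, the Sca-1 gene used in the sort, and the LSK libraries held 26.4 to 96.4 FPKM. Kit was between 24.4 and 56.6 FPKM in all 7 libraries. It had 24.4 to 27.9 FPKM in Uhrf1-/- LSK cells, 30.5 FPKM in LK cells and 29.0 to 56.6 FPKM in wild-type LSK cells. The wild-type LSK replicate 2 library stood apart, with 4.49% of its signal in ribosomal protein genes against 10.1% to 14.9% in the other libraries. Its FPKM values summed to 570509, against 851271 to 1128572 in the other libraries. Replicate 3 of both genotypes stood apart in the immediate-early gene Junb, with 22.4 FPKM in the Uhrf1-/- and 5.31 FPKM in the wild-type library against 188.5 to 250.4 FPKM in replicates 1 and 2.

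Promoter windows from RefSeq (250 bases before to 50 bases after the start site, GRCm38.p6) were matched for 7 of the 10 genes, all but Mx1, Mx2 and Rtp4. The core of the ISRE, written as GAAANNGAAA and searched on both strands, was found in the windows of Ifit1, Ifit3, Rsad2 and Bst2, and in 3.44% of all 32851 windows of this length. It was not found in the windows of Ifit2, Isg20 and Xaf1. Of the genes with matches, Ifit1, Rsad2 and Bst2 were higher in every Uhrf1-/- LSK library than in every wild-type LSK library. Their log2 differences were 1.31, 1.38 and 1.27, and Ifit3 overlapped between genotypes. Of the genes without matches, Isg20 and Xaf1 showed the same order (log2 differences 1.68 and 1.40), and Ifit2 overlapped. Whether the matches bear on the genotype difference was not tested. The stretch from 170 to 51 bases before the start site that the table gives is printed 5′ to 3′ on the gene's strand, with matches in capitals. The first 4 stretches hold matches, and Ifit2 is shown for comparison because its RNA followed another pattern across the libraries. They lie at chr19:34640719-34640838 (plus strand) for Ifit1, chr19:34583359-34583478 (plus) for Ifit3, chr12:26456503-26456622 (minus) for Rsad2, chr8:71537523-71537642 (minus) for Bst2 and chr19:34550524-34550643 (plus) for the first of 2 starts of Ifit2.
Ifit1: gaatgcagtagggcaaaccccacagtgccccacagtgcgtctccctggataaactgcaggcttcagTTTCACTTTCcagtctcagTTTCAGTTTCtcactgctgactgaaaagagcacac
Ifit3: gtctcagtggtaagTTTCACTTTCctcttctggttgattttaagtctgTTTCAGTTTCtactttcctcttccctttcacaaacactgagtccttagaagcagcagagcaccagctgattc
Rsad2: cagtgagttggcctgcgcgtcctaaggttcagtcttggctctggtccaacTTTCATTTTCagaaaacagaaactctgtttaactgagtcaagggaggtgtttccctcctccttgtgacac
Bst2: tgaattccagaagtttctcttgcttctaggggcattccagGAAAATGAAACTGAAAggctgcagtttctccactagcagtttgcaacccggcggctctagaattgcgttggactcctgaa
Ifit2: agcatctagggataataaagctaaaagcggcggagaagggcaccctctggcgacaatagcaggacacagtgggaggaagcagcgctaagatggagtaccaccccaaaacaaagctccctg

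Ifit1 and Ifit3 each held 2 separate matches on the strand opposite to the gene, at 104 to 95 and 85 to 76 bases before the start of Ifit1 and at 156 to 147 and 122 to 113 bases before that of Ifit3. Rsad2 held 1 match at 120 to 111 bases before its start. The 2 matches of Bst2 overlapped each other between 130 and 115 bases before its start. A second element, the gamma-activated site of interferon gamma targets, was searched as TTCNNNGAA, which reads the same on both strands. It was found in Bst2, where it overlapped the ISRE match, in the first windows of Ifit2 and Isg20, and in 8.3% of all windows. CpG dinucleotides, the sites that Uhrf1 helps to keep methylated, numbered 1 to 11 in the 10 windows of these 7 genes, against a median of 7 and quartiles of 3 and 20 over all windows. These matches describe the letters in each window and not whether a factor binds there.

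**Figure D1:**
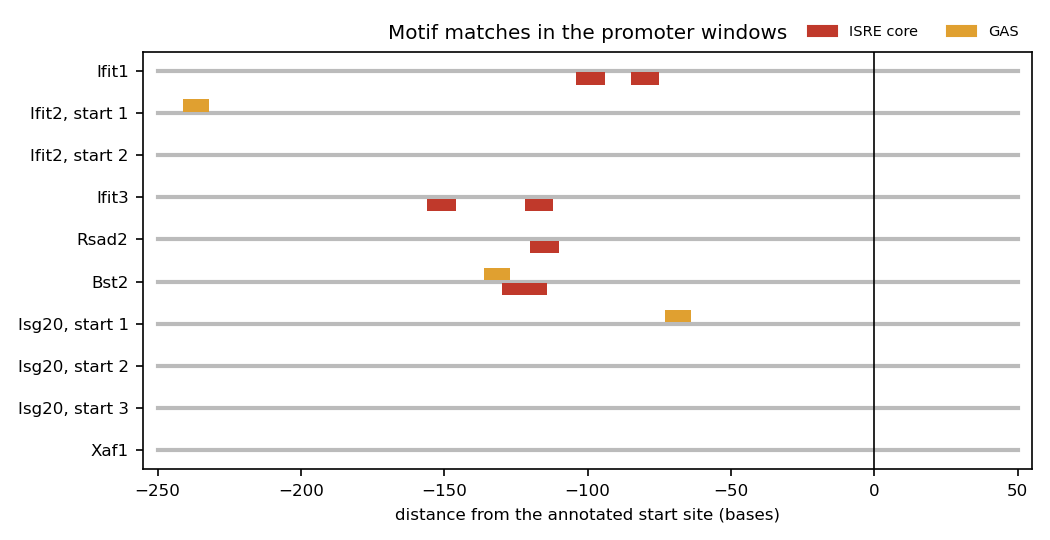
Matches to the ISRE core (red, below each line) and to the gamma-activated site (yellow, above it) in the promoter windows of 7 antiviral effector genes, by distance in bases from each annotated start site. The windows of Ifit1, Ifit3, Rsad2 and Bst2 hold ISRE core matches between 156 and 76 bases before the start.

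The 3 IFIT genes lie close together on chromosome 19 and encode tetratricopeptide repeat proteins. The genotypes did not overlap in Ifit1 and overlapped in Ifit2 and Ifit3. Ifit1 (Entrez gene 15957; 34640889 to 34650009), which binds viral RNA that lacks cap methylation, had 9.07, 15.2 and 7.42 FPKM in Uhrf1-/- LSK cells, against 2.84, 4.22 and 3.54 FPKM in wild-type LSK cells. Every Uhrf1-/- library was above every wild-type library. The means were 10.6 ± 4.11 FPKM in Uhrf1-/- cells and 3.53 ± 0.692 FPKM in wild-type cells (SD, n = 3 each), a ratio of 2.99, with a log2 difference of 1.31 (SE 0.31). Replicate 2 of the Uhrf1-/- cells was the highest, and the LK library was the lowest of all at 0.287 FPKM.

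Ifit2 (Entrez gene 15958; 34550550 to 34576534), which also binds RNA and is known in other settings to restrain virus spread, had 1.63, 1.50 and 1.25 FPKM in Uhrf1-/- cells, against 0.775, 2.48 and 2.30 FPKM in wild-type cells. The Uhrf1-/- libraries lay between the lowest and the 2 highest wild-type libraries. The log2 difference was -0.15 (SE 0.30), positive in replicate 1 (0.57) and negative in replicates 2 (-0.48) and 3 (-0.56). It turned to 0.02 without the wild-type replicate 2 library. These values rested on 159 to 175 estimated reads in the Uhrf1-/- libraries and on 73, 326 and 373 in the wild-type libraries.

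Ifit3 (Entrez gene 15959; 34583119 to 34588982), a partner of the other IFIT proteins, was near the limit of detection. It had 1.47, 1.52 and 0.341 FPKM in Uhrf1-/- cells, against 0.493, 0.971 and 0.281 FPKM in wild-type cells. Both replicate 3 libraries were low, at 15 and 17 estimated reads, and the groups overlapped. It was the 1 gene of the 10 with a mean under 1 FPKM over the LSK libraries, so it was left out of the fit and entered only some of the alternatives. The neighbouring Ifit3b, a near-identical copy listed under the symbol I830012O16Rik, had 0.589, 0.748 and 0.0221 FPKM in Uhrf1-/- cells and 0.108, 0.472 and 0.0804 FPKM in wild-type cells. How reads were divided between the copies is not known, and Ifit3 values are uncertain for that reason. A further copy, Ifit1bl1 (listed as Gm14446), had 0.678, 0.792 and 0.703 FPKM in Uhrf1-/- cells and 0.168, 0.363 and 0.114 FPKM in wild-type cells, without overlap. Ifit1bl2 (listed as 2010002M12Rik) had 0.1995, 0.0866 and 0.00951 FPKM in Uhrf1-/- cells and 0.0251, 0.0449 and 0.1565 FPKM in wild-type cells, with overlap. These copies were named after their values were seen.

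Mx1 (Entrez gene 17857; chromosome 16, 97447035 to 97462906) and Mx2 (Entrez gene 17858; 97536081 to 97560901) are carried as transcribed pseudogenes in RefSeq's C57BL/6J assembly, as many inbred mouse strains hold disrupted Mx genes. Their RNA was still measured. Mx1 had 2.69, 2.32 and 2.13 FPKM in Uhrf1-/- cells, against 0.406, 0.302 and 0.426 FPKM in wild-type cells. No library overlapped, and the values within each genotype were close together. The means were 2.38 ± 0.287 FPKM in Uhrf1-/- cells and 0.378 ± 0.0667 FPKM in wild-type cells (SD, n = 3 each), a ratio of 6.29, with a log2 difference of 1.29 (SE 0.23). This ratio rested on 134 to 154 estimated reads in Uhrf1-/- libraries and 21 to 37 in wild-type libraries. With a pseudocount of 0.1 the log2 difference was 2.38.

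Mx2 had 1.95, 1.88 and 0.916 FPKM in Uhrf1-/- cells, against 0.832, 0.773 and 0.662 FPKM in wild-type cells. The lowest Uhrf1-/- library, replicate 3, was just above the highest wild-type library, and the log2 difference was 0.53 (SE 0.25). Mx1, Mx2 and Ifit3 had wild-type LSK means under 1 FPKM, and Mx1 and Mx2 passed the expression minimum through the Uhrf1-/- libraries.

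Rsad2 (Entrez gene 58185; chromosome 12, 26442743 to 26456452) encodes viperin, a radical SAM enzyme that makes a chain-terminating nucleotide. It had 6.31, 5.29 and 4.26 FPKM in Uhrf1-/- cells, against 1.04, 1.86 and 1.35 FPKM in wild-type cells. The groups were apart, with means of 5.29 ± 1.03 FPKM in Uhrf1-/- cells and 1.42 ± 0.413 FPKM in wild-type cells (SD, n = 3 each), a ratio of 3.73 and a log2 difference of 1.38 (SE 0.26).

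Isg20 (Entrez gene 57444; chromosome 7, 78913396 to 78920396), an RNA exonuclease, had a log2 difference of 1.68 (SE 0.31), the largest of the 10 genes with a pseudocount of 1. With a pseudocount of 0.1 it was 1.71, below Mx1 (2.38) and Rsad2 (1.84). Isg20 had 106.1, 108.2 and 58.5 FPKM in Uhrf1-/- cells, against 33.1, 21.5 and 26.4 FPKM in wild-type cells. Uhrf1-/- replicate 3 was the lowest of its group and still above every wild-type library. The related gene Isg20l2 had 23.4 to 29.2 FPKM in Uhrf1-/- cells and 22.5 to 36.95 FPKM in wild-type cells.

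Bst2 (Entrez gene 69550; chromosome 8, 71534255 to 71537472), also called tetherin, was the most abundant of the 10 per length. It had 613.8, 540.9 and 442.7 FPKM in Uhrf1-/- cells, against 300.5, 135.1 and 255.7 FPKM in wild-type cells. The groups did not overlap, with means of 532.4 ± 85.9 FPKM in Uhrf1-/- cells and 230.4 ± 85.5 FPKM in wild-type cells (SD, n = 3 each), and the log2 difference was 1.27 (SE 0.39). The lowest value came from the wild-type replicate 2 library, and without it the log2 difference was 0.93. Bst2 is also a surface marker of plasmacytoid dendritic cells. The summed level of the other markers of that cell type was at most 8.97 FPKM in Uhrf1-/- cells and at least 17.1 FPKM in wild-type LSK cells. Cox6a2 was the largest part of each of these sums but that of Uhrf1-/- replicate 3. The part of these markers' cells in the Bst2 level was not tested.

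Xaf1 (Entrez gene 327959; chromosome 11, 72301461 to 72313733), which binds and counters the apoptosis inhibitor XIAP, had 28.7, 29.8 and 28.6 FPKM in Uhrf1-/- cells, against 12.2, 6.45 and 13.95 FPKM in wild-type cells. The Uhrf1-/- libraries were nearly equal and all above the wild-type libraries, with a log2 difference of 1.40 (SE 0.30). Rtp4 (Entrez gene 67775; chromosome 16, 23520219 to 23614222), a receptor chaperone induced by interferon, had 90.9, 105.7 and 44.4 FPKM in Uhrf1-/- cells, against 25.0, 25.3 and 60.1 FPKM in wild-type cells. Replicate 3 went the other way from replicates 1 and 2, with a log2 difference of -0.43 against 1.82 and 2.02. The mean difference was 1.14 (SE 0.42), and without the wild-type replicate 3 library every Uhrf1-/- library was above the wild-type ones. The annotated span of Rtp4 overlaps Masp1 on the other strand and Gm45338 on its own, and reads of these genes cannot be told apart without a known strand setting. The related Rtp1, Rtp2 and Rtp3 were listed at 0 in all 7 libraries.

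**Figure D2:**
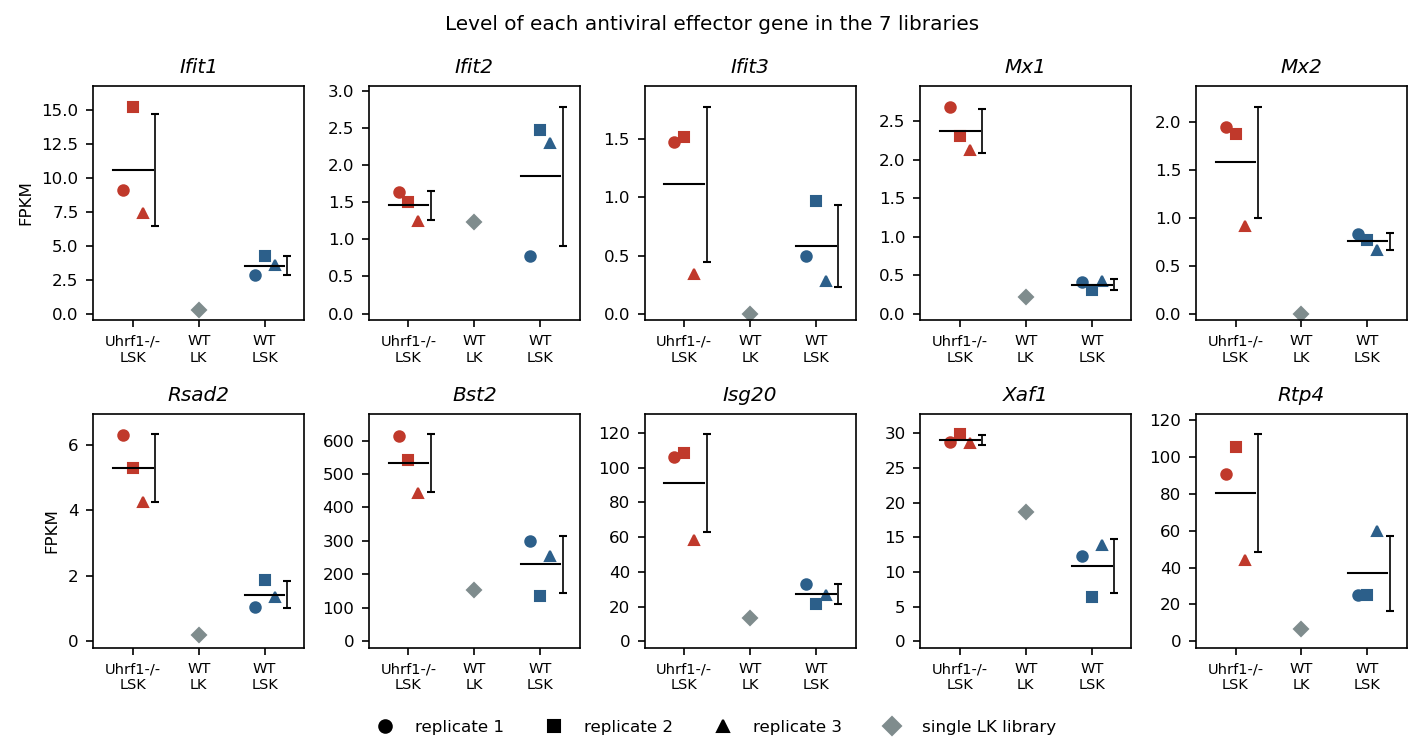
FPKM of each antiviral effector gene in the 3 Uhrf1-/- LSK libraries (red), the single wild-type LK library (grey) and the 3 wild-type LSK libraries (blue), with the group mean (line) and SD (bar, n = 3). Marker shape gives the replicate number, and each panel has its own linear axis. In 7 genes every red point is above every blue point, and Ifit2, Ifit3 and Rtp4 are the exceptions.

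Across the list, 9 of 10 genes had a higher mean on the log2 scale in Uhrf1-/- LSK cells, and Ifit2 was the exception. In 7 of 10 every Uhrf1-/- library was above every wild-type LSK library. Of all 10608 genes tested, 4.61% showed that order. The median log2 difference over the 10 genes was 1.28, and over all genes tested it was -0.03. Without the wild-type replicate 2 library the median was 1.02, and without the Uhrf1-/- replicate 3 library it was 1.40. By replicate number, the median difference was 1.28 in pair 1, 1.49 in pair 2 and 0.84 in pair 3, with 10, 9 and 8 of the 10 genes higher. The limma fit over all genes called 0 of the 9 tested members (7 had an unadjusted p under 0.05), while 0.113% of all genes were called higher and 0.0566% lower. With the replicate number as a block it called 5 members higher, Ifit1, Mx1, Rsad2, Isg20 and Xaf1, while 1.23% of all genes were called higher and 0.83% lower. Without pair 2 the blocked fit called 0 members (6 had an unadjusted p under 0.05). Since the genes were chosen on this comparison, these counts describe them and test nothing.

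**Figure D3:**
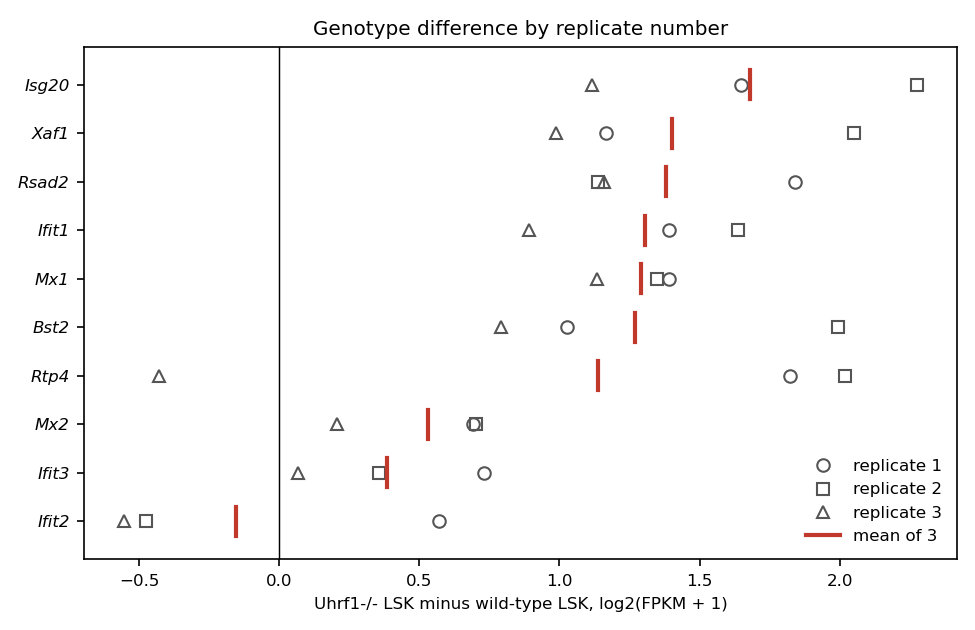
Difference between Uhrf1-/- and wild-type LSK libraries of the same replicate number, in log2(FPKM + 1), for each gene, with the mean of the 3 as a red line. Replicate 3 (triangles) gives the smallest difference in 9 of 10 genes, all but Rsad2, and is below 0 for Rtp4 and Ifit2.

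The LK library was compared with the wild-type LSK libraries in a fit over all 7, a comparison on which the list was not chosen. With 1 LK library, its spread is taken to be that of the LSK groups. In 7 of the 10 genes the LK library was below every wild-type LSK library, as it was for 30.4% of the 10649 genes tested. Mx2 and Ifit3 were listed at 0 in LK cells. Ifit1 was the 1 member that passed, with 0.287 FPKM (18 estimated reads) in LK cells against a mean of 3.53 ± 0.692 FPKM in wild-type LSK cells (SD, n = 3), a log2 difference of -1.80 (SE 0.43) and a limma adjusted p of 0.037. It did not pass without wild-type LSK replicate 1 (adjusted p = 0.062) or 2 (0.075), without Uhrf1-/- replicate 1 (0.051) or with no filter (0.080). In the fit, 3.58% of all genes were lower and 1.76% higher in LK cells.

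Rtp4 had 6.73 FPKM in LK cells and 25.0 to 60.1 FPKM in wild-type LSK cells, with a log2 difference of -2.17 (SE 0.59) that did not pass (limma adjusted p = 0.064). It passed without Uhrf1-/- replicate 3 (limma adjusted p = 0.047), with the wild-type libraries alone (limma adjusted p = 0.023) and on the scaled count signal (limma adjusted p = 0.013). Rsad2 had 0.204 FPKM in LK cells and 1.04 to 1.86 FPKM in wild-type LSK cells, with a log2 difference of -0.99 that did not pass (limma adjusted p = 0.146). It passed with a pseudocount of 0.1 (-2.29, limma adjusted p = 0.028) and on the scaled count signal (-2.26, limma adjusted p = 0.015). Mx2, listed at 0 in LK cells and with a mean of 0.755 FPKM in wild-type LSK cells, had a log2 difference of -0.81. With a pseudocount of 0.1 the difference was -3.09. Mx1 and Mx2 entered this fit through the Uhrf1-/- libraries and did not reach the expression minimum with the wild-type libraries alone. Isg20 had 13.6 FPKM in LK cells and 21.5 to 33.1 FPKM in wild-type LSK cells (limma adjusted p = 0.258). Bst2 and Ifit2, at 152.8 and 1.23 FPKM, were within the wild-type LSK range. Xaf1 alone was above it, with 18.6 FPKM in LK cells and 6.45 to 13.95 FPKM in wild-type LSK cells, and this did not pass (limma adjusted p = 0.316). The genotype and LK comparisons share the wild-type LSK libraries.

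Across the 7 libraries, 9 members with a mean of at least 1 FPKM were averaged after centring each on the log2 scale. The averaged profile stood at 0.88, 0.91 and 0.41 in the Uhrf1-/- libraries, at -1.12 in the LK library and at -0.41, -0.50 and -0.17 in the wild-type LSK libraries. Isg20 (Pearson r = 0.97 with the mean of the other members) and Rsad2 (r = 0.96) were closest to it. Xaf1 (r = 0.60) and Ifit2 (r = 0.00) were farthest. The non-members with the most similar pattern, of 10649 genes compared, were Isg15 (r = 0.98), Oas3 (0.98), Rusc1 (0.97), H2-D1 (0.97), Irf7 (0.97), Ifi27 (0.96), Oas1g (0.96) and Snx11 (0.96). Among these, Isg15, a ubiquitin-like protein, had 182.3, 179.5 and 82.6 FPKM in Uhrf1-/- cells, 6.73 FPKM in LK cells and 41.2, 19.8 and 42.6 FPKM in wild-type LSK cells. The libraries are the same ones that chose the list, and these correlations over 7 libraries of 3 kinds are a description.

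Of the interferon ligands, 15 genes were in the table and 0 reached the expression minimum. A total of 11, among them Ifng and both listed lambda interferons, were listed at 0 in all 7 libraries. Ifnb1, the interferon beta gene, was at 0.154 FPKM (2 estimated reads) in Uhrf1-/- replicate 2 and listed at 0 elsewhere. Ifnab was at 0.105 and 0.672 FPKM (1 and 7 estimated reads) in Uhrf1-/- replicates 1 and 3 and listed at 0 elsewhere. Ifna13 was at 0.0546 FPKM (1 estimated read) in wild-type LSK replicate 2 and listed at 0 elsewhere. Ifnz belongs to the type I interferon multigene family, so its reads may be shared with related genes. It had 0.528, 0.404 and 0.720 FPKM in Uhrf1-/- cells, 0.336 FPKM in LK cells and 0.0670, 0.309 and 0.213 FPKM in wild-type LSK cells, from 1 to 11 estimated reads in each library.

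Of the receptor and signalling genes, 19 were tested and 8 had a positive log2 difference. In all, 0 were called in the limma fit (3 had an unadjusted p under 0.05), and the median log2 difference over the list was -0.12. Irf7 and Socs1 were called higher with the replicate block, as were 1.23% of all genes tested. Irf7, the factor that amplifies interferon transcription, had 56.5 ± 14.3 FPKM in Uhrf1-/- cells and 17.0 ± 0.749 FPKM in wild-type cells (SD, n = 3 each), with a log2 difference of 1.64 and a limma adjusted p of 0.053, or 0.00057 with the block. Socs1, an inhibitor of cytokine receptor signalling, had 29.45, 32.2 and 3.596 FPKM in Uhrf1-/- cells and 14.2, 10.6 and 1.85 FPKM in wild-type cells, higher in each pair with overlap between genotypes (limma adjusted p = 0.942, blocked 0.026). Both replicate 3 libraries were low. Usp18, a protease that removes Isg15 and restrains receptor signalling, was second with a log2 difference of 1.26 and did not pass (limma adjusted p = 0.571, blocked 0.297). The lowest were Ifngr1, a subunit of the interferon gamma receptor, at -0.92 and Irf8, a transcription factor of dendritic cells, at -0.78, neither of which passed (limma adjusted p = 0.900 and 0.779). Ifnar1, a subunit of the type I interferon receptor, had 3.20 ± 0.592 FPKM in Uhrf1-/- cells and 5.16 ± 1.29 FPKM in wild-type cells (SD, n = 3 each), and did not pass (limma adjusted p = 0.942).

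Other interferon-stimulated genes, 47 in the list and 46 tested, had a positive log2 difference in 44 and a median of 0.62. The median over all genes tested was -0.03. Zbp1, a nucleic acid sensor, rose to 17.7 ± 4.28 FPKM in Uhrf1-/- cells, against 1.46 ± 0.737 FPKM in wild-type cells (SD, n = 3 each), with a log2 difference of 2.94 (SE 0.31) and a limma adjusted p of 0.015. It was the 1 gene of the list called without the block, and 0 were called when wild-type replicate 1 or 2 was left out. Over all genes tested, 0.113% were called higher without the block. With the block 13 were called higher, as were 1.23% of all genes tested. Of the 13, 7 belong to the oligoadenylate synthetase family (Oas1a, Oas1b, Oas1g, Oas2, Oas3, Oasl1 and Oasl2), which responds to double-stranded RNA. The other 6 were Isg15, Zbp1, Dhx58, Ifi27, Ifi44 and Ube2l6. Ifi44 had a mean of 0.444 FPKM in wild-type LSK cells and passed the expression minimum through the Uhrf1-/- libraries (mean 1.77 FPKM). The list was also chosen with these results known, so its count is not independent evidence. After Zbp1, Isg15 had the highest log2 difference (2.06; limma adjusted p = 0.089, blocked 0.011). B2m, the invariant chain of class I antigen presentation, was at the low end of the list (-0.04) and did not pass (limma adjusted p = 0.997). With pair 2 left out, 1 gene on the list passed under the block.

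**Figure D4:**
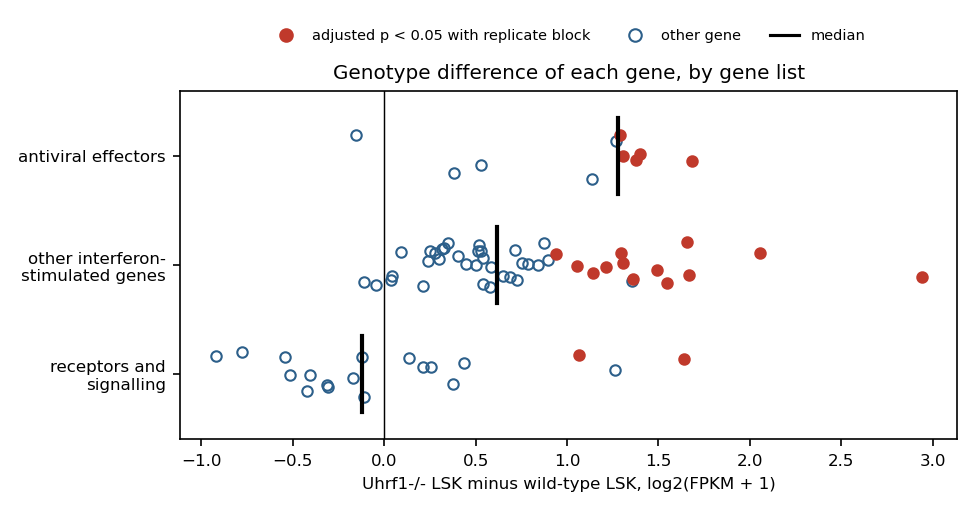
Difference between Uhrf1-/- and wild-type LSK cells in log2(FPKM + 1), 1 point per gene, for the antiviral effectors (all 10), the other interferon-stimulated genes tested and the receptor and signalling genes tested. Filled red points passed the blocked limma fit over all genes, and the black line is the list median (1.28, 0.62 and -0.12).

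The summed levels of other cell types' markers differed between libraries. Macrophage genes summed to 35.8, 38.0 and 2.32 FPKM in Uhrf1-/- cells, 1.13 FPKM in LK cells and 149.3, 72.9 and 1.12 FPKM in wild-type LSK cells, with 3 of 8 tested and 0 called by limma with or without the block (an unadjusted p under 0.05 was found for 0 without the block and for 1 with it). Both replicate 3 libraries were low in these markers, and the median difference of the 10 effectors was 0.84 in pair 3, against 1.28 and 1.49 in pairs 1 and 2. Plasmacytoid dendritic cell genes other than Bst2 summed to 8.82, 8.97 and 2.97 FPKM in Uhrf1-/- cells, 7.74 FPKM in LK cells and 42.6, 17.1 and 41.8 FPKM in wild-type LSK cells. Cox6a2 was the largest part of each sum but that of Uhrf1-/- replicate 3. It had 0.866 to 6.13 FPKM in Uhrf1-/- cells, 6.54 FPKM in LK cells and 7.47 to 31.7 FPKM in wild-type LSK cells. It was not called (limma adjusted p = 0.532, blocked 0.563). Of 3 tested, Ccr9 was called lower, and Siglech, a defining marker, was at 0 in 2 of the Uhrf1-/- libraries and at 0.219 to 0.472 FPKM in wild-type LSK cells. In these bulk libraries fewer cells of a type and less RNA per cell cannot be told apart.

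Erythroid genes summed to 108.2, 137.9 and 127.9 FPKM in Uhrf1-/- cells and 1170 FPKM in LK cells. In wild-type LSK cells they summed to 123.5, 39.6 and 10.6 FPKM. Of 4 tested, 3 had a positive log2 difference. Gata1 was called higher in Uhrf1-/- cells, as was Epor with the replicate block. Hba-a1 had 4.24, 28.9 and 11.3 FPKM in Uhrf1-/- cells and 79.5, 5.07 and 4.91 FPKM in wild-type LSK cells, with overlap. Stem and multipotent progenitor genes summed to 217.9, 212.8 and 178.5 FPKM in Uhrf1-/- cells, 102.7 FPKM in LK cells and 338.4, 472.4 and 321.6 FPKM in wild-type LSK cells, without overlap between genotypes. Cd34 was the largest part of each sum, at 134.2 to 162.2 FPKM in Uhrf1-/- cells and 193.6 to 361.0 FPKM in wild-type LSK cells. Cd34, Hlf and Flt3 did not overlap between genotypes, while Mecom and Procr did (log2 differences -0.28 and -0.05). Of these 5, Flt3 was called lower with the replicate block. Monocyte and neutrophil genes summed to 556.5 to 596.0 FPKM in Uhrf1-/- cells, 2126 FPKM in LK cells and 665.0 to 805.8 FPKM in wild-type LSK cells. Mpo was the largest part of each sum. It had 529.0 to 580.9 FPKM in Uhrf1-/- cells, 1411 FPKM in LK cells and 530.4 to 773.3 FPKM in wild-type LSK cells, with overlap between genotypes. S100a8 was called lower with the block. Hepatoblast genes summed to at most 9.37 FPKM and endothelial genes to at most 15.6 FPKM in any library, with 0 called by limma in either fit. An unadjusted p under 0.05 was found for 0 of their 4 tested genes without the block, and with it for 1 hepatoblast and 0 endothelial genes. Lineage genes that the sort removes summed to 4.30 to 6.62 FPKM in Uhrf1-/- cells, 21.8 FPKM in LK cells and 5.76 to 7.55 FPKM in wild-type LSK cells. Of these, Cd3e was listed at 0 in every library. Ly6a, which is itself induced by interferon and whose protein sets the LSK gate, had 84.6, 96.4 and 36.9 FPKM in Uhrf1-/- cells and 56.8, 34.3 and 26.4 FPKM in wild-type LSK cells, higher in each pair but with overlap. The part of these cell types, and of the gate, in the levels of the antiviral effectors was not tested.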

How the data were processed

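RNA of 7 libraries was sequenced, and the libraries were grouped by their titles. The authors deposited 1 table of 22680 genes with 2 values per library. The FPKM values, scaled for both gene length and depth, were used as deposited by the authors. The second value is headed count in the deposited table, but it is not whole, and it was used as a scaled count signal. Of its values above 0 and below 100 steps, 98.2% to 98.6% lay within 0.02 steps of a whole multiple of a library-specific step, and dividing by that step gave the estimated reads. Per the submitters' processing notes, the tools were TopHat2 2.0.9 and Cufflinks 2.1.1 and the build mm10, and no order is stated. Annotation, strandedness and multi-read handling were not given in the sources used here. Reads of near-identical copies and of overlapping genes cannot be told apart.

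limma 3.58.1 in R 4.3.3 (trend and robust) was fitted to log2(FPKM + 1) over all genes whose mean reached 1 FPKM, two-sided, and p-values were adjusted by Benjamini-Hochberg at a threshold of 0.05. Fold changes on this scale understate the change of low genes. The genotype fit held the 6 LSK libraries, and the fit with the LK library held all 7. Libraries of the same replicate number deviated together from their group means (correlations 0.349, 0.332 and 0.645), and on these values the numbers were read as pairs, which the labels do not state. Replicates 1 and 2 also correlated across numbers (0.213 and 0.159), so pairs 1 and 2 are less clearly told apart. Replicate 3 correlated negatively with both (-0.591 to -0.287). Deviations from a group mean cancel over the group, so a positive value with 1 number forces negative values with others. The negative values are therefore no separate sign of pairing. The design text reports 3 independent sorting experiments without tying replicate numbers to them or to separate animals, so the p-values reflect only how far these libraries spread, which may be technical. The fit without the block was tested on simulated data. The members and gene lists were chosen with earlier results of these data known. Named were all members, the 8 genes most like them over the 7 libraries, and from each interferon list the 2 highest and 2 lowest genes by genotype difference, 1 of which is not reported here. Other genes are named because they passed a test, mark a cell type or lie beside a member. Alternatives were another pseudocount (0.1), no filter, median-of-ratios scaling, the scaled count signal, the replicate block, and leaving out libraries or pairs. Promoter windows are from RefSeq (GRCm38.p6, the assembly also called mm10).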

Additional observations from a re-analysis of the deposited data

How the results depend on the processing

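The median genotype difference of the 10 genes stayed between 0.99 and 1.50 over the alternatives run. Members called rose above 0 on the scaled count signal (2, Mx1 and Rsad2), with the replicate block (5), and with the block and pair 1 (5) or pair 3 (6) left out, and stayed at 0 with the block and pair 2 left out and in the other limma fits, where 6 to 8 had an unadjusted p under 0.05. In the LK comparison, 3 members were called with a pseudocount of 0.1, 0 with no filter, 3 on the scaled count signal, 2 with wild-type libraries alone, and 0 to 2 with 1 LSK library left out. Other interferon-stimulated genes called higher numbered 13 with the block, 12 and 11 with the block and pair 1 or 3 left out, and 0 to 1 with 1 library left out and no block. Over all genes the genotype fit called 12 higher and 6 lower, 131 and 88 with the block, 345 and 322 without pair 1, 13 and 7 without pair 2, 114 and 82 without pair 3 (all blocked), 21 and 15 on the scaled count signal, 0 and 0 with no filter, and 0 to 3 and 0 to 1 with 1 library left out. The LK fit called 187 higher and 381 lower, 354 and 222 with no filter, 179 and 593 on the scaled count signal, and 130 to 311 and 250 to 583 with 1 library left out. Ifit2 turned positive, at 0.02, without wild-type replicate 2, and at 0.01 and 0.05 with the block and pair 2 or 3 left out. The number of members with every Uhrf1-/- library above every wild-type LSK library was rerun under alternatives chosen after seeing the data. So was the count of other interferon-stimulated genes. The first was 7 with median-of-ratios scaling, 6 on the scaled count signal and 7 to 9 with 1 library left out. Fewer libraries make full separation easier, and the share over all genes was not computed for these alternatives. Where these counts moved, the cause was not tested. Depth limits Ifit3, Mx1 and Mx2, which rest on 17 to 53 estimated reads in the wild-type LSK libraries.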
